A study of Mus musculus with 20 samples.

Results

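Expression of 36 oligodendrocyte and myelin genes was described in the hypothalamus of diet-induced obese mice. They were chosen by name, as genes whose platform annotation gives exactly 1 symbol, out of 18704 genes with such a probe set. By role they were 13 structural myelin genes, 5 genes of lipid and metabolite enzymes, 4 lineage transcription factors, 2 genes of precursor cells and 12 other genes of maturing and mature oligodendrocytes. All 36 had 1 single-symbol probe set each, and all 36 passed the filter on dim probe sets.

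Per the labels, all mice were C57BL/6J males fed a diet with 45% fat for 16 weeks, so vehicle and celastrol animals shared the diet, and no lean group was analysed here. The labelled age of 4 weeks is read here as the age when the diet began, and the age at collection is not given in the labels. The labels name no transgene, deletion or strain cross. Celastrol, a plant triterpenoid, was given into the peritoneum in dimethyl sulfoxide (DMSO), and DMSO alone was the vehicle. Vehicle groups of 3 arrays each were taken at 6 h, 1 day and 4 days, and celastrol groups at the same times with 4, 4 and 3 arrays. The labels give 25 µl of DMSO per day for both treatments, a volume of 100 µl for celastrol, while 250 µg/kg of celastrol is written beside the 6 h time alone. Arrays of a group are called biological replicates, but the labels do not tie an array to a mouse, so the p-values measure the spread between arrays, part of which may be technical.

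Oligodendrocytes are the glia that wrap axons of the brain and spinal cord in myelin. They arise from dividing precursors that carry the receptor PDGFRA and the proteoglycan NG2 (Cspg4), and the transcription factors OLIG1, OLIG2, SOX10 and NKX6-2 take part in their specification and maturation. The myelin they lay down is compacted by proteins such as MBP and is rich in galactosylceramide and sulfatide, which dedicated enzymes make. In the hypothalamus, myelinated tracts such as the fornix run between cell groups, and precursors persist in adult animals.

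Values are log2 intensities on Affymetrix Mouse Gene 1.0 ST arrays, and every difference below is on that scale, with its standard error (SE). The 36 probe sets had means over the 20 arrays between 7.85 and 13.19, against a dim limit of 7.11. Array medians lay between 8.60 and 8.65, and no pair of arrays was identical. The vehicle arrays numbered 3 at 6 h and at 1 day were distant from their groups on the leading component of the residuals, with scores of 11.26 and 9.35 against -6.06 to 5.20 for the others. All 13 measured genes of a hypothalamus list lay above the dim limit, and of 6 measured genes of Schwann cells, which make the myelin of peripheral nerve, 2 lay below it. In such bulk tissue, fewer oligodendrocytes and less transcript per oligodendrocyte cannot be told apart.

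At 1 day and 4 days most oligodendrocyte genes were lower in celastrol arrays than in vehicle arrays, and at 6 h they were not. The differences were small. By the mean of both later times they were largest in Opalin, a membrane protein of myelin, and next in the transcription factor Nkx6-2, the carbonic anhydrase Car2, the enzymes Aspa and Ugt8a and the transcription factor Sox10. They were close to 0 in Mbp, the major protein of compact myelin, and in other myelin genes such as Nfasc, Hapln2 and Cldn11. Both precursor genes were close to 0 as well. Averaged over the times, Sox10 and Nkx6-2 were lower in celastrol than in vehicle, at a limma adjusted p under 0.05. Both calls ended without both distant arrays, and also with a covariate for thalamus genes. No member passed at any single time, nor in the difference in celastrol effect between the times. Over all 36 members, vehicle means at 6 h, 1 day and 4 days were 10.42, 10.50 and 10.52. Celastrol means were 10.43, 10.38 and 10.38. In the lineage and enzyme genes the celastrol means were nearly level over the times, and the vehicle means were higher at both later times than at 6 h.

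At 6 h, 13 of the 36 members had a difference below 0, where 59% of all 13905 genes tested did. The median of the members was 0.012, beside -0.016 for all genes. No member passed an adjusted p of 0.05 (limma moderated test, Benjamini-Hochberg over all genes tested), and none passed at an unadjusted p under 0.05 in either direction. Among all genes 0% passed the adjusted threshold at this time, and 5.18% were lower and 2.38% higher at the unadjusted one. The arrays of both groups did not overlap in 2 members, Mal and Ndrg1, higher in celastrol (1.83% of all genes), and in none that were lower (4.49%).

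At 1 day, 29 of 36 members lay below 0 (45.8% of all genes), and their median was -0.097 beside 0.007. The count past the adjusted threshold was 0, where 0.424% of all genes passed, 0.36% higher and 0.0647% lower. At an unadjusted p under 0.05, 12 members were lower and none higher, against 3.16% of all genes lower and 5.04% higher. The celastrol arrays all lay below the vehicle arrays in 11 members (3.16% of all genes) and all above them in 1, Hapln2 (4.72%). With array quality weights, 4 members passed at 1 day, and more of all genes passed too. Without both distant arrays, 29 members lay below 0, and 9 were lower at the unadjusted threshold where 6.67% of all genes were. Without celastrol replicate 4 at 1 day that count was 7 (2.95% of all genes), and without vehicle replicate 3 at 1 day it was 8 (5.48%).

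At 4 days, 30 of 36 lay below 0 (45.4% of all genes), with a median of -0.152 beside 0.008. Again 0 members passed the adjusted threshold, which 0.0791% of all genes did, 0.0575% higher and 0.0216% lower, and none passed under any alternative run. At an unadjusted p under 0.05, 18 members were lower and none higher, against 2.3% of all genes lower and 4.31% higher. The arrays did not overlap in 16 members, all lower in celastrol, where 5.44% of all genes were apart and lower and 8.99% apart and higher. This count of 18 rested in part on single arrays. It was 9 without celastrol replicate 3 at 4 days (1.71% of all genes) and 10 without vehicle replicate 1 at 4 days (1.79%). Without both distant arrays it was 19 (3.1%).

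**Figure D1:**
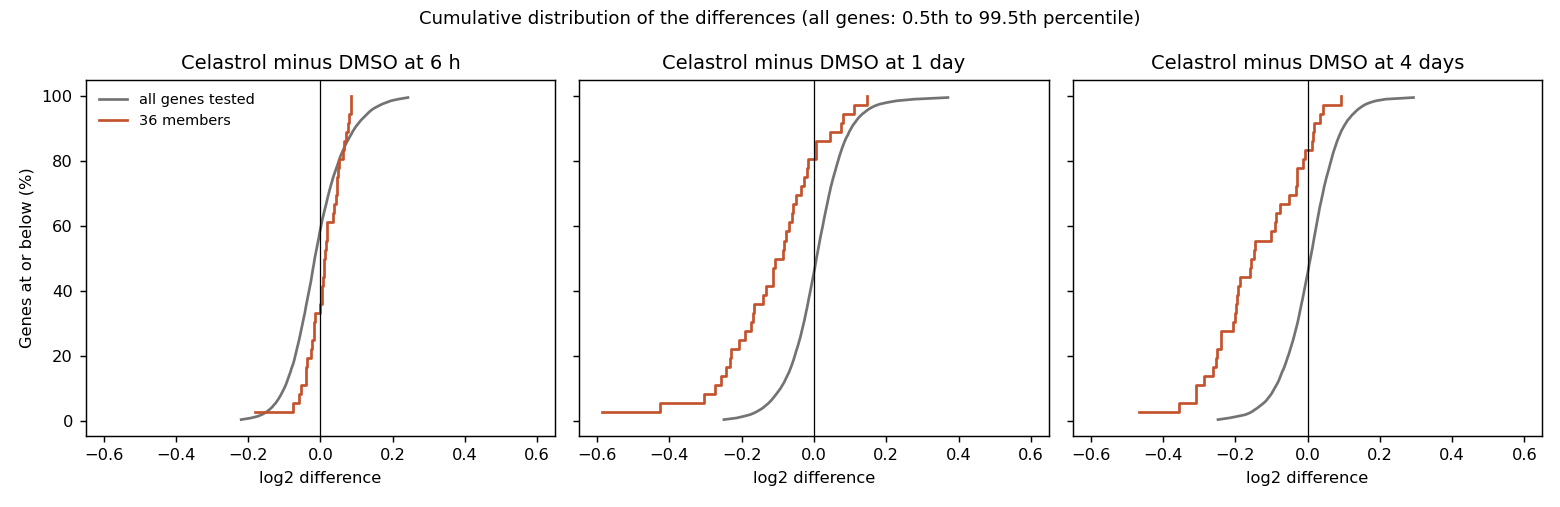
Cumulative share of genes (%, vertical axis) at or below each log2 difference between celastrol and DMSO (horizontal axis), for the 36 members in orange and for all genes tested in grey, at 6 h, 1 day and 4 days. At 6 h the median of the members is 0.012 beside -0.016 for all genes, and at 1 day and 4 days the orange line lies to the left, with medians of -0.097 and -0.152.

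The 10th percentile of all genes lay at -0.10 at 6 h and at -0.09 at both later times. Below it stood 1 member at 6 h, 18 at 1 day and 21 at 4 days. The difference in celastrol effect between the times was fitted as an interaction. For 1 day minus 6 h its median over the members was -0.126, with 28 of 36 below 0 (40.1% of all genes) and 8 lower at an unadjusted p under 0.05 (3.63%). For 4 days minus 6 h the median was -0.154, with 30 below 0 (39.9%) and 9 lower (2.42%). The count of members past the adjusted threshold was 0 in both (limma), where 0.00719% and 0.0144% of all genes passed. For 4 days minus 1 day the median was -0.035, with 24 below 0 (49.7%), 0 members lower at an unadjusted p under 0.05 (1.19%) and 0 past the adjusted threshold (0.00719%).

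**Figure D2:**
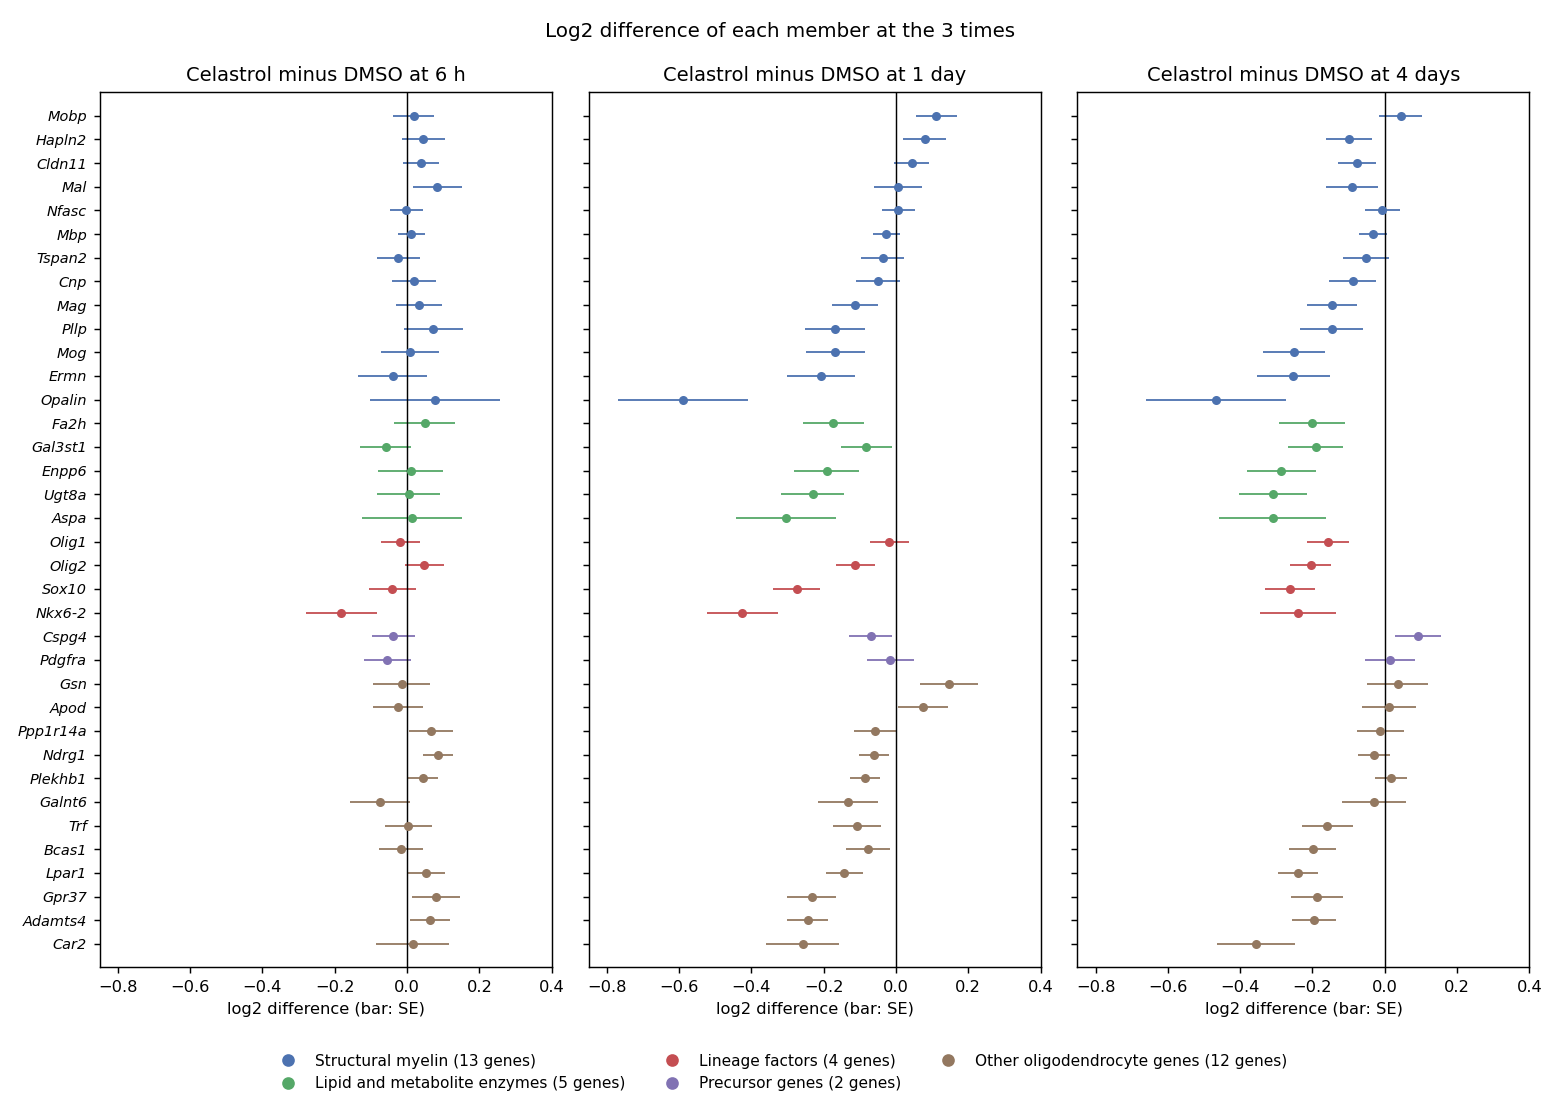
Log2 difference between celastrol and DMSO (horizontal axis, points with SE bars) of each of the 36 members at 6 h, 1 day and 4 days, coloured by role. Most points lie near 0 at 6 h, Opalin reaches -0.59 at 1 day and -0.47 at 4 days, and Mbp and the precursor genes in purple lie between -0.07 and 0.09 at both later times.

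The promoters of Opalin, Nkx6-2 and Olig2 are printed because Opalin had the largest differences, Nkx6-2 fell in the average over the times and Olig2 changed between vehicle times, and because SOX factors such as SOX10 bind short sites rich in A and T. Shown are the 250 bases before the gene's start, 5′ to 3′ on the gene's strand, from RefSeq on GRCm38.p6, in lower case, with capitals marking any ACAAT or ACAAAG read on either strand. The motifs both begin with ACAA, and they were searched on both strands. The Opalin window is chr19:41077114-41077363 on the minus strand, that of Nkx6-2 chr7:139582798-139583047 on the minus strand and that of Olig2 chr16:91225300-91225549 on the plus strand.
Opalin: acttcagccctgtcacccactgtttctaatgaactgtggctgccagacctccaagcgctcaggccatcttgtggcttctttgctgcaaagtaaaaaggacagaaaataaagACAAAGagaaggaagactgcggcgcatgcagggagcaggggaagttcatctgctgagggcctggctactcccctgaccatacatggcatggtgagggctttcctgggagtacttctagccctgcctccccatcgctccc
Nkx6-2: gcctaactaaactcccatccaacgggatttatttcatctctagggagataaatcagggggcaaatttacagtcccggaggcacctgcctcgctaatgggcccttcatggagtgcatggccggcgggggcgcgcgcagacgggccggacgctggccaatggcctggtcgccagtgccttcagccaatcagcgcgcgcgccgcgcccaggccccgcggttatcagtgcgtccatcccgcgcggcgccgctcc
Olig2: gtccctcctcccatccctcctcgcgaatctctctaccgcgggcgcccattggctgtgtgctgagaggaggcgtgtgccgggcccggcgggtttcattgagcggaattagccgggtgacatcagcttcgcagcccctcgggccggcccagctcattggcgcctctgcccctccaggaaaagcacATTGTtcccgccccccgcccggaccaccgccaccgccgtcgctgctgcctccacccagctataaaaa
Opalin held 1 match, ACAAAG with its first base at -139 from the start, and Olig2 held 1, ATTGT, the reverse complement of ACAAT, at -67. Nkx6-2 held 0. Of 32851 mouse promoter windows of this length, 27.7% held ACAAT, 16.5% held ACAAAG and 38.8% held either. Entries were found for 27 of the 36 members, with 39 promoter windows in all, of which 20 held either motif (51.3%). A match of a short word is a description of the letters in the window, and no binding was measured.

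The structural genes, whose proteins build and seal the sheath, had the widest range of differences of the 5 roles at 1 day and 4 days. Of 13, 8 were below 0 at 1 day and 12 at 4 days (45.8% and 45.4% of all genes). Their medians were 0.019 at 6 h, -0.037 at 1 day and -0.09 at 4 days. At an unadjusted p under 0.05, 2 were lower at 1 day, Opalin and Ermn, and 4 at 4 days, Opalin, Mog, Ermn and Mag, where 3.16% and 2.3% of all genes were lower. None of them passed the adjusted threshold (limma).

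Opalin, a sialylated membrane protein of central myelin, had the largest difference of any member, and its values are given for that reason. Vehicle arrays read 9.14, 9.09 and 9.42 at 1 day and 9.35, 9.27 and 9.28 at 4 days. Celastrol arrays read 8.85, 8.68, 8.66 and 8.33 at 1 day and 8.99, 9.09 and 8.42 at 4 days. At both times every celastrol array lay below every vehicle array, and the differences were -0.59 ± 0.18 (1.5-fold lower, limma adjusted p = 0.269) and -0.47 ± 0.19 (1.38-fold lower, 0.703). At 6 h the arrays overlapped widely, with vehicle at 8.91, 8.31 and 9.12 and celastrol at 9.06, 8.92, 8.47 and 8.97. Its SE was the largest of the 36 members.

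Mog, a surface protein of the outermost myelin lamella, differed by -0.17 ± 0.081 at 1 day and -0.25 ± 0.086 at 4 days. Ermn, a cytoskeletal protein of the sheath, differed by -0.21 ± 0.095 and -0.25 ± 0.10, and Mag, the adhesion molecule on the axon-facing side, by -0.11 ± 0.064 and -0.15 ± 0.068. Pllp, a tetraspan protein of myelin, differed by -0.17 ± 0.082 and -0.15 ± 0.087. None of these passed, with limma adjusted p between 0.563 and 0.835.

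Other genes of compact and non-compact myelin differed little. Mbp differed by -0.03 ± 0.037 at 1 day and -0.03 ± 0.040 at 4 days, Cnp, an enzyme of non-compact myelin, by -0.05 ± 0.061 and -0.09 ± 0.065, and Nfasc, which anchors the sheath beside the node of Ranvier, by 0.01 ± 0.046 and -0.01 ± 0.049. Mbp had the smallest SE of the 36 members. Cldn11, the claudin of myelin tight junctions, differed by 0.04 ± 0.049 and -0.08 ± 0.053, and Tspan2, a tetraspanin of the sheath, by -0.04 ± 0.060 and -0.05 ± 0.064.

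Mobp, a small basic protein of compact myelin, was the member with the smallest p on the higher side at 1 day, without passing. Its vehicle arrays read 11.67, 11.87 and 11.78 at 6 h, 11.57, 11.74 and 11.70 at 1 day and 11.67, 11.64 and 11.80 at 4 days, and its celastrol arrays 11.77, 11.86, 11.84 and 11.70, then 11.82, 11.80, 11.78 and 11.71, then 11.75, 11.74 and 11.75. Vehicle and celastrol overlapped at all 3 times, and the differences were 0.02 ± 0.056, 0.11 ± 0.056 and 0.04 ± 0.060 (limma adjusted p = 0.944, 0.617 and 0.959).

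Mal, a proteolipid that sorts cargo to the sheath, read 11.48, 11.52 and 11.57 in vehicle and 11.59, 11.59, 11.64 and 11.62 in celastrol at 6 h, where the celastrol arrays all lay above. Later vehicle arrays read 11.39, 11.60 and 11.51 at 1 day and 11.63, 11.51 and 11.74 at 4 days, and celastrol arrays 11.43, 11.45, 11.72 and 11.44 at 1 day and 11.52, 11.53 and 11.56 at 4 days, and these overlapped. The differences were 0.08 ± 0.067, 0.01 ± 0.067 and -0.09 ± 0.072, none of which passed (limma adjusted p = 0.763, 0.989 and 0.901).

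Hapln2, a link protein of the extracellular matrix at nodes, was the member whose arrays separated in opposite directions at 1 day and 4 days. At 1 day vehicle read 9.42, 9.43 and 9.48 and celastrol 9.54, 9.48, 9.55 and 9.51, all celastrol arrays at or above the highest vehicle array. At 4 days vehicle read 9.46, 9.47 and 9.55 and celastrol 9.46, 9.27 and 9.44, with the celastrol arrays at or below. At 6 h vehicle read 9.52, 9.70 and 9.43 and celastrol 9.52, 9.69, 9.64 and 9.54. The differences were 0.04 ± 0.059, 0.08 ± 0.059 and -0.10 ± 0.063 (limma adjusted p = 0.856, 0.769 and 0.863).

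The 5 enzyme genes serve the lipids and lipid precursors of myelin. All 5 lay below 0 at 1 day and at 4 days (45.8% and 45.4% of all genes). Their medians were 0.01 at 6 h, -0.191 at 1 day and -0.287 at 4 days. At both later times, 3 and then 4 of them were lower at an unadjusted p under 0.05 (3.16% and 2.3% of all genes). Ugt8a makes galactosylceramide, the main glycolipid of myelin, and differed by -0.23 ± 0.088 at 1 day and -0.31 ± 0.094 at 4 days, with celastrol arrays below all vehicle arrays at both times. Fa2h adds the hydroxyl group to the fatty acids of those lipids and differed by -0.17 ± 0.085 and -0.20 ± 0.091. Gal3st1, which sulfates galactosylceramide to sulfatide, differed by -0.08 ± 0.071 and -0.19 ± 0.076. Aspa, which splits N-acetylaspartate and so frees acetate for lipid synthesis, differed by -0.30 ± 0.14 and -0.31 ± 0.15, and Enpp6, a choline phosphodiesterase of newly formed oligodendrocytes, by -0.19 ± 0.090 and -0.29 ± 0.096. At single times none of the 5 passed (limma adjusted p between 0.44 and 0.811), and at 6 h they lay between -0.06 and 0.05.

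**Figure D3:**
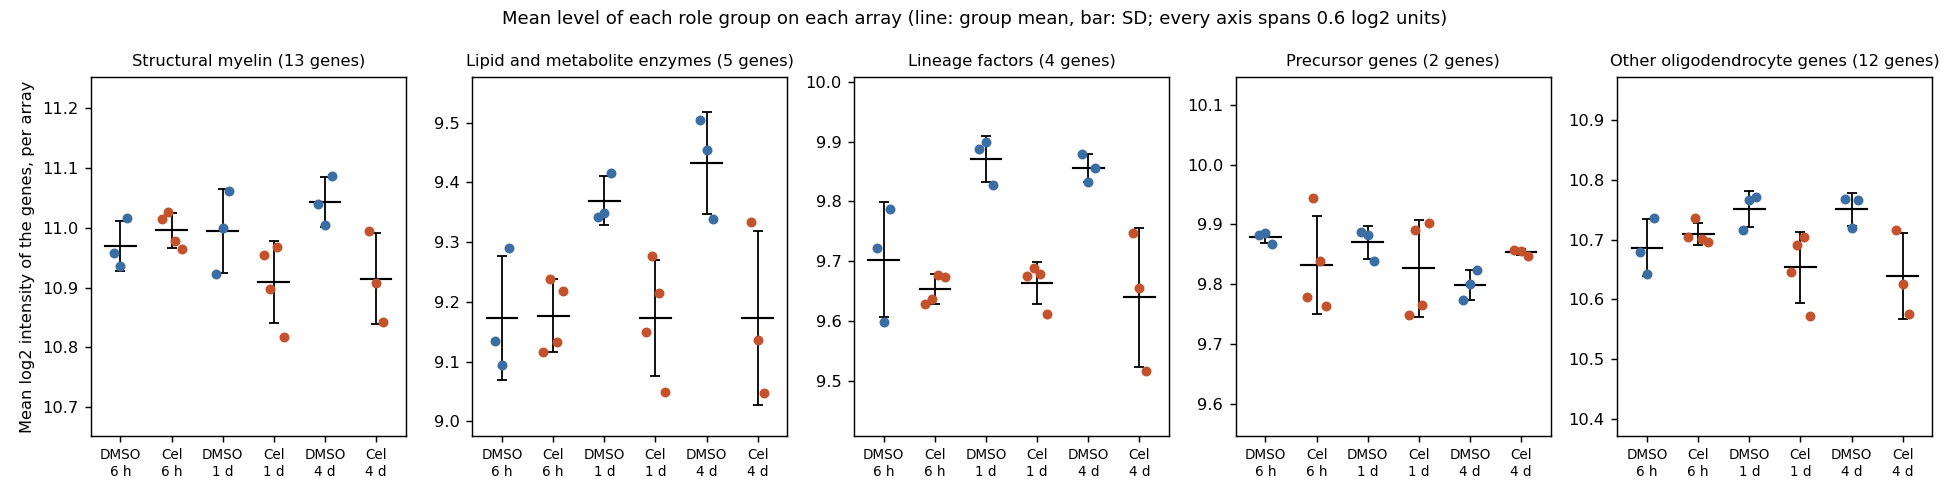
Mean log2 intensity of the genes of each role on each array (vertical axis, each panel spanning the same range), with points for arrays, lines for group means and bars for SD, vehicle in blue and celastrol in orange. For the lineage factors the vehicle arrays at 1 day and 4 days lie between 9.83 and 9.90, above the 9.52 to 9.79 of the other groups.

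The lineage factors were lower at both later times in 4 of 4 genes (45.8% and 45.4% of all genes). Their medians were -0.029 at 6 h, -0.194 at 1 day and -0.223 at 4 days. At an unadjusted p under 0.05, 3 were lower at 1 day and 4 at 4 days (3.16% and 2.3% of all genes). Averaged over the 3 times, Sox10 and Nkx6-2 passed the adjusted threshold, and these were the only members that did (2 of 36, where 0.575% of all genes passed and 0.151% were lower). In that average 31 of 36 members lay below 0 (50.1% of all genes), with a median of -0.08, and 17 were lower and none higher at an unadjusted p under 0.05 (4.1% and 4.74% of all genes).

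Sox10, a transcription factor that activates myelin genes throughout the lineage, read 9.21, 9.10 and 9.32 in vehicle and 9.11, 9.12, 9.21 and 9.22 in celastrol at 6 h. At 1 day it read 9.41, 9.51 and 9.36 in vehicle and 9.16, 9.11, 9.15 and 9.21 in celastrol. At 4 days it read 9.34, 9.44 and 9.50 in vehicle and 9.32, 9.16 and 9.01 in celastrol. The groups overlapped at 6 h and did not at 1 day or 4 days. Sox10 fell by 0.19 on average over the times (SE 0.039, 1.14-fold lower, limma adjusted p = 0.0234). At single times the differences were -0.04 ± 0.065, -0.27 ± 0.065 and -0.26 ± 0.070, which did not pass (limma adjusted p = 0.889, 0.0838 and 0.332). The averaged call ended without vehicle replicate 3 at 6 h (adjusted p = 0.0526), vehicle replicate 2 at 1 day (0.0606), vehicle replicate 3 at 4 days (0.0645) or celastrol replicate 3 at 4 days (0.0582).

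Nkx6-2, a homeodomain factor of maturing oligodendrocytes, read 9.72, 9.33 and 9.82 in vehicle and 9.43, 9.45, 9.41 and 9.48 in celastrol at 6 h, where 1 vehicle array lay below all celastrol arrays. At 1 day vehicle read 9.87, 9.81 and 9.85 and celastrol 9.47, 9.51, 9.37 and 9.33, with a gap between the groups. At 4 days vehicle read 9.78, 9.58 and 9.77 and celastrol 9.71, 9.43 and 9.27, and the groups overlapped. Nkx6-2 fell by 0.28 on average over the times (SE 0.058, 1.22-fold lower, limma adjusted p = 0.029). The differences at single times were -0.18 ± 0.098, -0.43 ± 0.098 and -0.24 ± 0.10 (limma adjusted p = 0.688, 0.071 and 0.728). Its averaged call ended with any of 11 of the 20 arrays left out, with adjusted p up to 0.0823. Without both distant arrays the averaged calls ended as well, with limma adjusted p of 0.0591 for Sox10 and 0.0859 for Nkx6-2.

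Olig2, the factor that specifies the lineage, read 9.36, 9.49 and 9.49 in vehicle and 9.46, 9.50, 9.54 and 9.48 in celastrol at 6 h. At 1 day it read 9.76, 9.65 and 9.64 in vehicle and 9.54, 9.57, 9.65 and 9.52 in celastrol, and at 4 days 9.80, 9.63 and 9.65 in vehicle and 9.55, 9.52 and 9.39 in celastrol. The 4 days groups did not overlap, and the lowest vehicle values of the gene were those at 6 h. The differences were 0.05 ± 0.054, -0.11 ± 0.054 and -0.21 ± 0.057 (limma adjusted p = 0.83, 0.605 and 0.403). Its relative Olig1 differed by -0.02 ± 0.055 at 1 day and -0.16 ± 0.059 at 4 days, without passing.

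**Figure D4:**
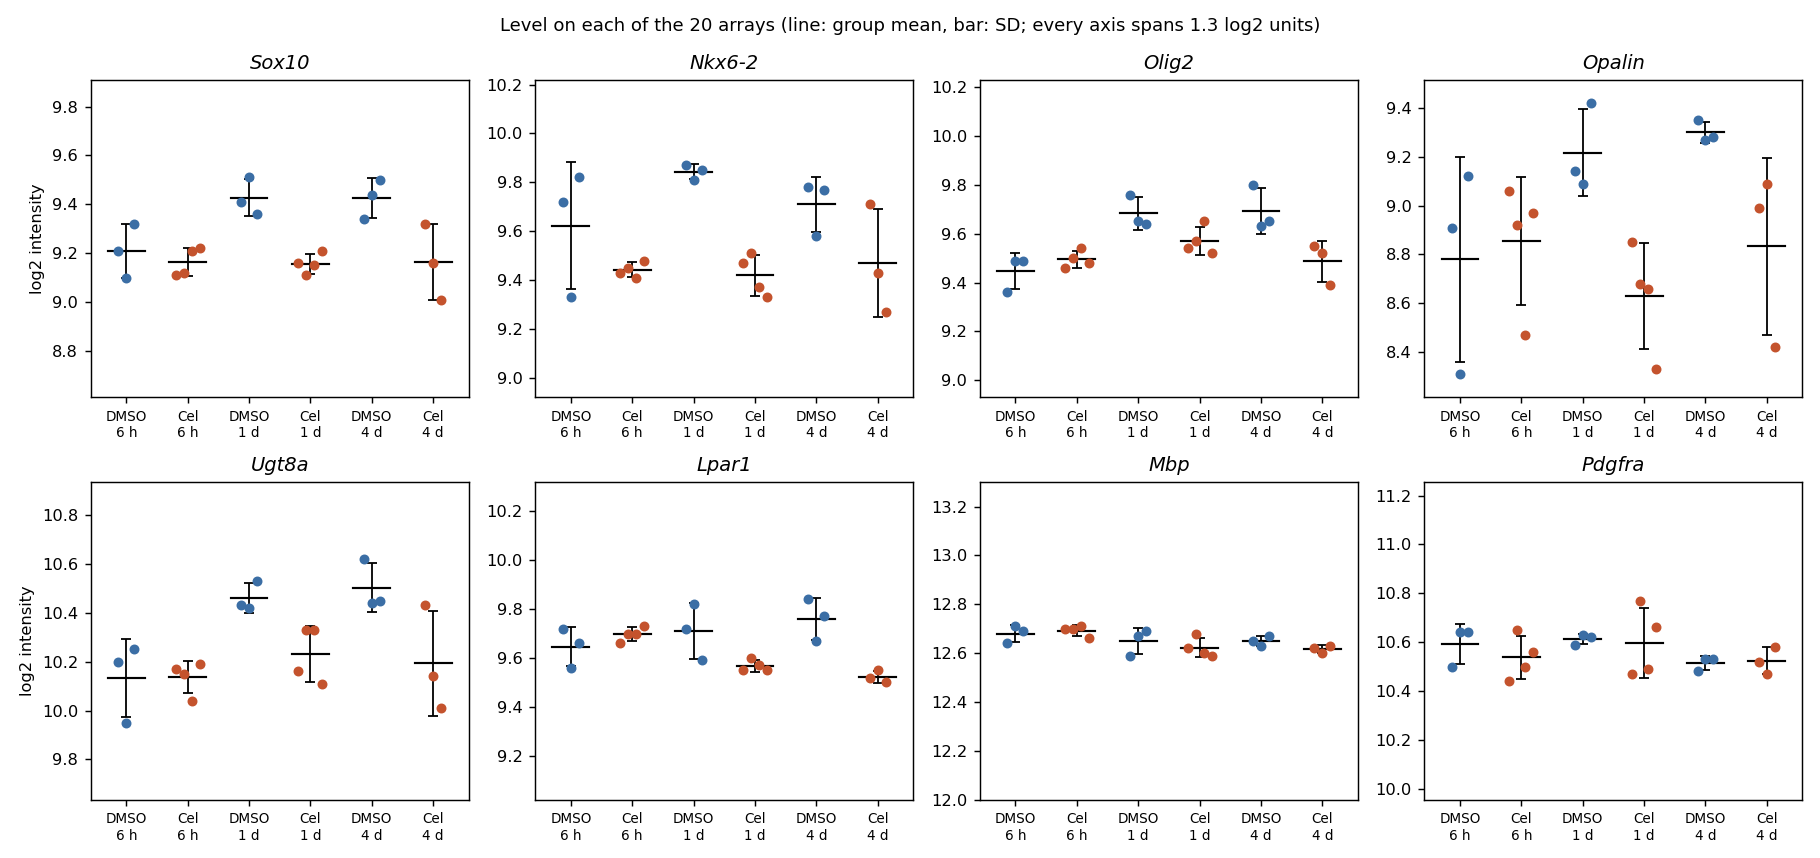
Log2 intensity (vertical axis, each panel spanning the same range) on each of the 20 arrays for 8 members, with points for arrays, lines for group means and bars for SD, vehicle in blue and celastrol in orange. Sox10 vehicle arrays at 1 day and 4 days, from 9.34 to 9.51, lie above all 14 other arrays, and the Mbp differences at the 3 times lie between -0.03 and 0.01.

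Among all genes tested, 7 (0.0503%) had all 6 later vehicle arrays above all 14 other arrays, and Sox10 was the only member of the 36 with that order. The lowest of these Sox10 arrays read 9.34 and the highest other array 9.32. This order was picked for description after the values had been seen, so its share among all genes is not a test. The reverse order was seen in 20 genes (0.144%) and in no member. For the lineage factors together, celastrol group means were 9.65 at 6 h, 9.66 at 1 day and 9.64 at 4 days, and vehicle means were 9.70, 9.87 and 9.86 in the same order. For the enzyme genes celastrol means were 9.18, 9.17 and 9.17, and vehicle means 9.17, 9.37 and 9.43. In both roles the celastrol means of the 3 times lay within their SDs of each other, and the vehicle mean of 6 h lay near them.

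This made the vehicle arrays over time a comparison of their own. Vehicle at 6 h minus the mean of both later vehicle groups gave 27 of 36 members below 0 (48.5% of all genes) and a median of -0.05, with 10 lower at an unadjusted p under 0.05 (5.62% of all genes). Olig2 passed, lower at 6 h, with a difference of -0.24 ± 0.050 (limma adjusted p = 0.032), and was the only member to pass (0.489% of all genes did, 0.266% lower). Ugt8a came next with -0.35 ± 0.081 (limma adjusted p = 0.0678), followed by Fa2h with -0.29 ± 0.079 (0.107) and Sox10 with -0.22 ± 0.060 (0.117). The Olig2 call rested on single arrays: it ended when any 1 of 7 vehicle arrays was left out, with adjusted p up to 0.0935, in a fit of the vehicle arrays alone (0.155) and without both distant arrays (0.126). Between 4 days and 1 day of vehicle, 0 members passed (0% of all genes; limma), with 1 member higher (3.55%) and 1 lower (3.78%) at an unadjusted p under 0.05.

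The same vehicle arrays of 6 h had higher levels of genes typical of the thalamus, which borders the hypothalamus. Of 13 tested genes of a thalamus list, 12 were higher at 6 h than in later vehicle and 2 passed, with a median of 0.302, and the summed linear intensity of the list's 14 genes was 19415 to 22813 in vehicle at 6 h and 17106 to 19445 in all other groups. In another fit the mean of that list, leaving out Tcf7l2, was a covariate. The averaged differences were then -0.17 for Sox10 (limma adjusted p = 0.273) and -0.23 for Nkx6-2 (0.363). Olig2 in vehicle at 6 h differed by -0.22 (limma adjusted p = 0.815). All 3 calls thus ended while the values stayed near those without the covariate. The medians of the members at 1 day and 4 days with this covariate were -0.101 and -0.155. The part of neighbouring tissue in the members' vehicle values at 6 h was not tested further, and time, collection and processing cannot be told apart in that comparison.

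Within the celastrol arrays, 6 h minus later gave 10 of 36 members below 0 (59.2% of all genes) and a median of 0.044. At an unadjusted p under 0.05, 10 were higher (6.74% of all genes) and 2 lower (15%), and 0 passed the adjusted threshold (0.992%; limma). The structural genes Mbp, Mog, Tspan2, Pllp and Hapln2 made up 5 of the 10 that were higher, and the enzyme and lineage genes none. Ndrg1 (0.12 ± 0.035, limma adjusted p = 0.0673) and Lpar1 (0.15 ± 0.043, 0.0678) came nearest to passing. For 4 days minus 1 day of celastrol, 0 members passed (0.036% of all genes; limma), and 2 were higher (6.64%) and 1 lower (5.54%) at an unadjusted p under 0.05. This comparison and the vehicle one share arrays with the celastrol comparisons at each time, so their values are set side by side and not read as separate evidence.

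An alternative chosen after the times had been seen averaged only 1 day and 4 days. In it 32 of 36 members lay below 0 (44.4% of all genes), with a median of -0.131 beside 0.007, and 20 were lower at an unadjusted p under 0.05 (4.21%). Past the adjusted threshold were 7 members, all lower, where 1.3% of all genes passed and 0.381% were lower. Sox10 fell by 0.27 (SE 0.048, limma adjusted p = 0.00684), Adamts4 by 0.22 (0.041, 0.00937) and Lpar1 by 0.19 (0.038, 0.0147). Nkx6-2 fell by 0.33 (SE 0.072, limma adjusted p = 0.0239), Gpr37 by 0.21 (0.049, 0.0388), Ugt8a by 0.27 (0.064, 0.0433) and Car2 by 0.31 (0.074, 0.0459). Olig2 with -0.16 (0.0513) and Opalin with -0.53 (0.0561) lay just outside. Sox10 and Adamts4 passed in all 22 alternatives of this average, which left out each array, left out both distant arrays, or added the thalamus covariate. Other filters, normalisations, weights and blocks were not among them. Because the times were picked from these same arrays, the p-values of this average are too small. Its repeats are no separate evidence. Lpar1 passed in 19, Nkx6-2 in 15, Gpr37 in 8, Ugt8a in 6 and Car2 in 5, and the count of members that passed ranged from 2 to 12. Over the same alternatives the count of all genes that passed ran from 74 to 265. It was 243 where 12 members passed and 74 in 1 of those where 2 did.

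Of the precursor genes, Pdgfra encodes the growth factor receptor of dividing precursors. It read 10.50, 10.64 and 10.64 in vehicle and 10.44, 10.65, 10.50 and 10.56 in celastrol at 6 h, 10.59, 10.63 and 10.62 in vehicle and 10.47, 10.77, 10.49 and 10.66 in celastrol at 1 day, and 10.48, 10.53 and 10.53 in vehicle and 10.52, 10.47 and 10.58 in celastrol at 4 days. The groups overlapped at all times, and the differences were -0.05 ± 0.065, -0.02 ± 0.065 and 0.01 ± 0.069, with limma adjusted p between 0.839 and 0.989.

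Cspg4, the NG2 proteoglycan, read 9.27, 9.13 and 9.09 in vehicle and 9.12, 9.24, 9.18 and 8.96 in celastrol at 6 h, 9.19, 9.14 and 9.05 in vehicle and 9.03, 9.02, 9.04 and 9.14 in celastrol at 1 day, and 9.07, 9.07 and 9.12 in vehicle and 9.20, 9.24 and 9.11 in celastrol at 4 days. Its groups overlapped too, with differences of -0.04 ± 0.060, -0.07 ± 0.060 and 0.09 ± 0.064 (limma adjusted p = 0.887, 0.807 and 0.877). That both missed the threshold does not show that the precursor genes stayed level. Cspg4 is also expressed by pericytes, and Pdgfra by fibroblasts of the meninges and vessels.

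The other 12 genes had medians at 1 day and 4 days between those of the structural and the enzyme genes. They were 0.029 at 6 h, -0.097 at 1 day and -0.094 at 4 days, with 10 and 9 of 12 below 0 (45.8% and 45.4% of all genes) and 4 and 6 lower at an unadjusted p under 0.05 (3.16% and 2.3%).

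Adamts4, a secreted protease expressed by mature oligodendrocytes in brain, had the smallest p of the members on the lower side at 1 day. Vehicle read 9.18, 9.14 and 9.33 at 6 h, 9.19, 9.28 and 9.33 at 1 day and 9.50, 9.33 and 9.50 at 4 days. Celastrol read 9.24, 9.38, 9.31 and 9.19 at 6 h, 9.05, 9.04, 9.01 and 8.98 at 1 day and 9.27, 9.27 and 9.20 at 4 days. At both later times the celastrol arrays lay below all vehicle arrays, with differences of -0.24 ± 0.056 (limma adjusted p = 0.0692) and -0.20 ± 0.060 (0.446), and at 6 h the difference was 0.06 ± 0.056 (0.779).

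Lpar1, a receptor for lysophosphatidic acid that is abundant in myelinating cells, had the smallest p at 4 days. Vehicle read 9.72, 9.56 and 9.66 at 6 h, 9.72, 9.82 and 9.59 at 1 day and 9.84, 9.67 and 9.77 at 4 days, and celastrol 9.66, 9.70, 9.70 and 9.73, then 9.55, 9.60, 9.57 and 9.55, then 9.52, 9.55 and 9.50. The 4 days groups did not overlap, and the celastrol values there lay between 9.50 and 9.55. The differences were 0.05 ± 0.052, -0.14 ± 0.052 and -0.24 ± 0.056 (limma adjusted p = 0.809, 0.407 and 0.185).

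Gpr37, an orphan receptor that restrains oligodendrocyte maturation, read 10.82, 10.51 and 10.73 in vehicle and 10.74, 10.73, 10.81 and 10.78 in celastrol at 6 h. It then read 10.75, 10.86 and 10.92 in vehicle and 10.62, 10.55, 10.75 and 10.51 in celastrol at 1 day, and 10.93, 10.81 and 10.91 in vehicle and 10.77, 10.71 and 10.62 in celastrol at 4 days. Celastrol arrays lay at or below the vehicle arrays at both later times, and 1 low vehicle array, replicate 2, set the 6 h difference of 0.08 ± 0.067, which was -0.0083 without it. The later differences were -0.23 ± 0.067 and -0.19 ± 0.072 (limma adjusted p = 0.204 and 0.64). Car2, the carbonic anhydrase of oligodendrocytes, differed by -0.26 ± 0.10 and -0.36 ± 0.11, and its arrays did not overlap at either time (limma adjusted p = 0.456 and 0.446).

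Bcas1, which marks oligodendrocytes in the course of myelinating, differed by -0.08 ± 0.061 at 1 day and -0.20 ± 0.065 at 4 days, and Trf, transferrin, which oligodendrocytes secrete, by -0.11 ± 0.066 and -0.16 ± 0.070. Plekhb1, Ppp1r14a and Apod, an apolipoprotein that carries small lipids, lay between -0.09 and 0.07 at both times. None of these passed.

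Ndrg1, a stress-responsive gene of myelinating glia, differed in opposite directions at 6 h and 1 day. Vehicle read 11.71, 11.80 and 11.76 and celastrol 11.85, 11.84, 11.84 and 11.83 at 6 h, with all celastrol arrays above. At 1 day vehicle read 11.77, 11.76 and 11.80 and celastrol 11.62, 11.73, 11.75 and 11.75, with all celastrol arrays below, and at 4 days they read 11.73, 11.75 and 11.77 in vehicle and 11.65, 11.72 and 11.80 in celastrol and overlapped. The differences were 0.08 ± 0.042, -0.06 ± 0.042 and -0.03 ± 0.045, all small and none past the threshold (limma adjusted p = 0.666, 0.738 and 0.97).

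Gsn, the actin-severing protein gelsolin, read 9.24, 9.25 and 9.30 in vehicle and 9.13, 9.28, 9.31 and 9.28 in celastrol at 6 h, 9.30, 9.19 and 9.21 in vehicle and 9.21, 9.58, 9.49 and 9.23 in celastrol at 1 day, and 9.09, 9.33 and 9.17 in vehicle and 9.28, 9.29 and 9.13 in celastrol at 4 days. Celastrol replicates 2 and 3 at 1 day were its highest values, and the groups overlapped throughout. The differences were -0.02 ± 0.080, 0.15 ± 0.080 and 0.04 ± 0.085, without passing (limma adjusted p = 0.967, 0.647 and 0.986).

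Galnt6, which starts O-linked glycans, read 7.86, 7.89 and 7.85 in vehicle and 7.85, 7.84, 7.69 and 7.79 in celastrol at 6 h, 8.02, 7.88 and 8.06 in vehicle and 7.82, 7.98, 7.90 and 7.71 in celastrol at 1 day, and 7.77, 7.90 and 7.85 in vehicle and 8.08, 7.64 and 7.71 in celastrol at 4 days. Its groups overlapped at each time, and it was one of the dimmest probe sets of the members. The differences were -0.08 ± 0.083, -0.13 ± 0.083 and -0.03 ± 0.089 (limma adjusted p = 0.826, 0.711 and 0.987).

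The size of the difference varied with the brightness of the probe set. The 18 brighter members, with means of 10.52 to 13.19, had medians of -0.044 at 1 day and -0.083 at 4 days, with 2 and 7 lower at an unadjusted p under 0.05. The 18 dimmer members, with means of 7.85 to 10.42, had medians of -0.156 and -0.202, with 10 and 11 lower. All genes in the brighter range had medians of 0.003 and 0.01, with 1.84% and 1.54% lower at that threshold. All genes in the dimmer range had medians of 0.017 and 0.013, with 2.89% and 2.41% lower. The part of brightness in the small differences of Mbp and other bright members was not tested.

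Beyond the 36 members, 54 genes of other oligodendrocyte lists were tested. Of these 27 lay below 0 at 6 h, 38 at 1 day and 39 at 4 days, where 59%, 45.8% and 45.4% of all genes did. The counts that passed were 0, 2 and 2, all lower, where 0%, 0.424% and 0.0791% of all genes passed (limma; at 6 h 1 was lower and 2 higher at an unadjusted p under 0.05). Both that passed encode connexins that oligodendrocytes express. Gjc3 fell by 0.30 at 1 day (SE 0.055, limma adjusted p = 0.0183) and by 0.33 at 4 days (0.059, 0.0394), from vehicle levels of 11.99 and 12.02 to 11.69 at both times. Gjb1 fell by 0.25 at 1 day (SE 0.053, limma adjusted p = 0.0377) and by 0.31 at 4 days (0.057, 0.041). Of the alternatives, the Gjc3 call held in 25 of 31 at 1 day and 17 of 31 at 4 days, and the Gjb1 call in 17 and 14 of 30. Gjc3 was also lower in vehicle at 6 h than later (-0.29, limma adjusted p = 0.0206), as was Tmem88b (-0.32, 0.0322).

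By list, 29 of 34 further genes of myelinating cells lay below 0 at 1 day and 29 at 4 days. Their medians were -0.08 and -0.098, and 45.8% and 45.4% of all genes lay below 0. The 8 genes of committed precursors had medians of -0.032 at 6 h, -0.015 at 1 day and 0.001 at 4 days, and the 12 further precursor genes 0.005, 0.014 and 0.001, with none past the threshold in either list. At 1 day and 4 days the next by p, without passing, were Mcam at 1 day (-0.28, limma adjusted p = 0.0788) and Cryab, a small heat shock protein, at 4 days (-0.28, 0.169). At 6 h they were Zfp488, a transcriptional corepressor of oligodendrocytes (0.22, limma adjusted p = 0.575), Tcf7l2, a Wnt effector that the thalamus also expresses (-0.31, 0.645), and Lims2 (0.09, 0.658).

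For markers of other cells, median differences at 6 h, 1 day and 4 days were -0.027, -0.016 and 0.016 for 10 astrocyte genes and -0.025, -0.034 and -0.002 for 12 neuron genes, and of these 22 genes 1 astrocyte gene passed, lower at 1 day. For 8 microglia genes they were -0.037, -0.003 and -0.017, and for 9 endothelial genes -0.069, 0.026 and -0.138, with 1 endothelial gene passing, lower at 1 day. The 4 tested Schwann cell genes, one of which is Mbp itself, had medians of 0.025, -0.051 and -0.03. Medians were 0.036, 0.078 and 0.00 for 9 tanycyte and ependymal genes, with 1 passing, higher at 1 day, and -0.055, -0.062 and -0.112 for 6 choroid plexus genes. They were -0.017, 0.051 and 0.049 for 13 hypothalamus genes and -0.024, 0.019 and 0.01 for 8 striatum genes, with none passing. The 4 tested pituitary genes had 0.057, -0.321 and -0.17 with wide spread, since the summed intensity of that list ran from 1000 to 4659 over the arrays, and its 3 other measured genes lay below the dim limit. The part of any of these in the members' values was not tested.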

How the data were processed

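Hypothalamus RNA from 20 samples was hybridised to 1-colour Affymetrix Mouse Gene 1.0 ST arrays, after an Ambion WT Expression labelling, per the labels' protocols. The values deposited by the authors are log2 intensities for 23492 probe sets, made with RMA per the submitters' processing notes, whose version is not given in the sources used here. Base 2 of the log scale is read from RMA and the range of the values. RMA subtracts background, sets all arrays to 1 distribution and summarises probes, so a change shared by most genes would not be seen.

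Platform annotation gave 1 symbol to 20228 probe sets, several to 1399 and none to 1865. The brightest probe set per gene left 18704 genes, of which 13905 lay above the 25th percentile of single-symbol probe sets, 7.11 on the log2 scale, and were tested. A mean per group was fitted to all 20 arrays with limma 3.58.1 in R 4.3.3 (14 residual and 4.98 prior degrees of freedom), two-sided, with Benjamini-Hochberg adjustment over all genes tested and a threshold of 0.05. The number of arrays, 3 or 4 per group, limits the precision. On simulated data with 200 changed genes, the comparison at 1 day recovered 74.8% of changes of 0.3 and 96.6% of changes of 0.5 (log2). The simulated arrays had independent normal noise at each gene's fitted spread and no distant arrays. Recovery in the real arrays may be lower.

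Members, roles and gene lists were chosen with earlier results of these data known. Array values are printed for members that passed in any of 11 comparisons, for the 3 with the smallest p in each direction at each time, and for Opalin, which was added after its values were seen. Alternatives were other dim filters, normalisations and fits, and leaving out arrays. The labels name no batch.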

Additional observations from a re-analysis of the deposited data

Results flagged for a closer look

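In Ndrg1 at 1 day of celastrol, replicate 1 read 11.62 beside 11.73, 11.75 and 11.75, and its gap was 0.868 of the group's range. In Mal at 1 day of celastrol, replicate 3 read 11.72 beside 11.43, 11.44 and 11.45, a gap of 0.922 of the range. Both exceed Dixon's critical value for 4 arrays. They were 2 of 38 groups of 4 checked, and chance gives about 1 in 20.

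The celastrol difference of Ndrg1 ran in opposite directions at 6 h and 1 day, with every celastrol array above vehicle and then every one below. The interaction was -0.15 (unadjusted p = 0.0234, limma adjusted p = 0.456), so it did not pass over all genes. The celastrol difference of Hapln2 ran in opposite directions at 1 day and 4 days, and its interaction was -0.18 (unadjusted p = 0.0522, limma adjusted p = 1.00).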

How the results depend on the processing

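At 6 h and 4 days 0 members passed under every alternative run. At 1 day 2 passed with the dim filter at the 50th percentile, 2 with arrays centred, 3 after quantile normalisation, 4 with array weights, 1 with only the groups compared, and 0 to 2 with each array left out. Averaged over the times, 0 passed with the thalamus list mean as a covariate, 0 without both distant arrays, 7 in the mean of 1 day and 4 days (median -0.131), and 0 to 5 with each array left out. For vehicle at 6 h against later, 2 passed with the 50th percentile filter, 2 after quantile normalisation, 2 with trend and robust fitting, 0 with array weights, with the thalamus covariate, without both distant arrays or with only the groups compared, and 0 to 2 with each array left out. For celastrol at 6 h against later, the counts were 2 with the 50th percentile filter, 2 with array weights, 1 with trend and robust fitting, 1 without both arrays, 1 with only the groups compared and 0 to 1 with each array left out. The count of all genes that passed also differed between runs, as given below for some runs at 1 day. In the mean of 1 day and 4 days, 1.3% of all genes passed. Apart from these, the share of all genes in each run is not given here, so the member counts have no background beside them. A change in the member counts is therefore not read as particular to the members. The cause of these moves was not tested.

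The member median with each array left out lay between -0.003 and 0.034 at 6 h, -0.113 and -0.081 at 1 day, -0.183 and -0.115 at 4 days, and -0.093 and 0.006 for the change from 1 day to 4 days. Of the named members, Gpr37 at 6 h ran from -0.0083, without vehicle replicate 2, to 0.15 with each array left out, and Gsn at 4 days from -0.0183, without vehicle replicate 1, to 0.10, so both could change sign. Among all genes at 1 day, 9 of 59 calls were lower, against 18 of 55 with arrays centred, 22 of 69 after quantile normalisation, and 64 of 185 with array weights.

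Within a time, correlations of same-numbered vehicle and celastrol deviations ran from -0.28 to 0.29. This does not show that samples were unpaired, and deviations shared across times were not examined. Both distant arrays carry the number 3. With the replicate number as a block, 2 members passed in the average (Sox10 at -0.20, limma adjusted p = 0.0369, and Nkx6-2 at -0.28, 0.0433) and 1 in vehicle over time (Olig2 at -0.24, 0.0479). With 3 or 4 arrays per group, differences can be missed at single times, under 0.3 and above it. At 1 day Opalin differed by -0.59 and Nkx6-2 by -0.43, and neither passed in the main fit. Nkx6-2 passed at that time in some alternatives and Opalin in none.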
